A study of Mus musculus with 2 samples.

Results

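The genes described are those for store-operated calcium entry, calcium release from the endoplasmic reticulum and the potassium channels that sustain entry. They were the 10 genes Stim1, Stim2, Orai1, Orai2, Orai3, Itpr1, Itpr2, Itpr3, Kcnn4 and Kcna3, chosen by name. Their values did not enter the rule, but the choice was made with earlier results of these data known. Every probe set annotated to 1 of these symbols alone was taken, which gave 19 of 45037 probe sets and 9 of 18193 named genes. Itpr1 had no such probe set and was not analysed here. The cells were mouse T cells with the 5cc7 receptor, which binds a peptide of moth cytochrome c. They had been stimulated in culture with MCC peptide and were taken as blasts on day 5. Their RNA was read on 2 Affymetrix mouse arrays, called set 1 and set 2 as in the titles, which formed 1 group with no resting, untreated or earlier sample. The labels give no strain, age, number of animals or culture medium, call both arrays experiment 1 of 2, and do not say that the RNA came from separate cultures, so the spread between the arrays may be technical.

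When a T cell receptor binds its ligand, phospholipase C makes inositol trisphosphate, which opens inositol trisphosphate receptors in the endoplasmic reticulum and lets stored calcium out. STIM proteins sense the emptied store and open ORAI channels in the plasma membrane, and the calcium that enters activates calcineurin and NFAT factors. Each calcium ion that enters brings positive charge, and potassium channels let potassium leave, which keeps the membrane potential negative and the driving force for calcium high.

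All 9 measured genes had at least 1 probe set above background. The bound was the 95th percentile of probe sets for liver, eye, pancreas and kidney genes, 53.9 on set 1 and 55.7 on set 2, and a probe set had to exceed it on both arrays. By this rule 15 of the 19 probe sets (78.9%) were above background, against 38.0% of all probe sets. Among all named genes 47.4% had a probe set above the bound. A second list, of genes of other organs again, had 5 of 35 above the bound (14.3%). The brightest were the myelin gene Mbp at 493.5 ± 31.3, by 2 of 8 probe sets, and the thyroid gene Tg at 431.55 ± 18.7. Whether T cells transcribe these genes was not tested, so their intensities need not be background. With the bound taken from that list, 105 on set 1 and 116 on set 2, 7 of the 9 genes were above it and Stim1 and Itpr2 were not. Each Stim1 probe set exceeded this bound on 1 array only, 1448320_at on set 1 at 142.5 and 1436945_x_at on set 2 at 187.5. The brightest Itpr2 probe set exceeded it on set 1 only, at 116.1 against 111.7 on set 2. With 1 group of 2 arrays no comparison could be tested, and these counts are descriptions. Values are deposited intensities on a linear scale, and means are given ± SD (n = 2). Since probes differ in how strongly they bind, the order of intensities between genes is not an order of transcript levels.

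**Figure D1:**
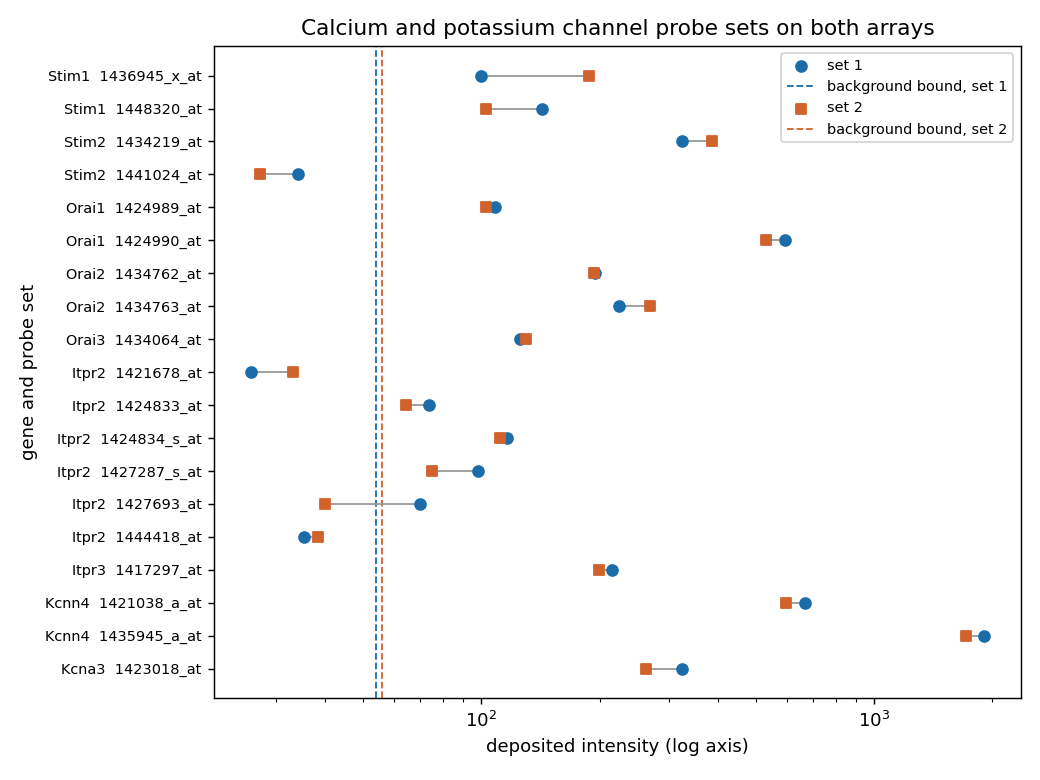
Deposited intensity (log axis) of the 19 probe sets of the 9 measured genes on set 1 (circles) and set 2 (squares), with a dashed line at the background bound of each array and a grey line joining the 2 values. The 4 probe sets not above background belong to Stim2 and Itpr2, and the 2 Stim1 probe sets move in opposite directions.

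The store sensors were above background, but the arrays disagreed on Stim1. Stim1, the main sensor that opens ORAI channels on store depletion, was read by 2 probe sets. Probe set 1448320_at was at 142.5 on set 1 and 103 on set 2. Probe set 1436945_x_at was at 99.7 on set 1 and 187.5 on set 2. Set 1 was thus the higher array by the first and the lower array by the other. The ending _x_at marks a probe set in which some probes may also match other sequences, and this probe set has no sequence accession in the annotation. Their means were close, at 122.75 ± 27.9 and 143.6 ± 62.1, and which of the 2 was brighter differed between the arrays. Stim1 was therefore 2.24 or 2.62 times the mean bound, depending on the probe set.

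Stim2, a sensor that responds to smaller losses of stored calcium, rested on 1 of 2 probe sets. Probe set 1434219_at was at 324.2 on set 1 and 386.1 on set 2, a mean of 355.15 ± 43.8 and 6.48 times the mean bound. Probe set 1441024_at was at 34.1 and 27.4, under the bound on both arrays. Such a split was common. Among all 2595 genes with 2 probe sets and at least 1 above background, only 1 of the 2 was above background in 49.4%.

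All 3 pore genes were above background by every probe set. Orai1 encodes the pore-forming subunit of the calcium release-activated calcium channel of T cells. Its probe set 1424990_at was at 594.6 on set 1 and 532 on set 2, which is 10.3 times the mean bound. Its other probe set, 1424989_at, annotated from the same sequence accession, was at 108.5 and 102.5. The ratio of the 2 Orai1 probe sets was 5.48 on set 1 and 5.19 on set 2, so the arrays gave nearly the same disagreement between them.

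Orai2, a paralogue that can join Orai1 in the channel, was measured by probe sets close to each other. Probe set 1434763_at was at 223.8 on set 1 and 269 on set 2, and 1434762_at at 194.7 and 193.5. Both probe sets were thus above the bound on both arrays, at 4.50 and 3.54 times the mean bound. Orai3, the remaining ORAI gene, had 1 probe set, 1434064_at, at 125.6 and 129.8, a mean of 127.7 ± 2.97 and 2.33 times the mean bound. The kidney gene Kap, a member of the list that set the bound, was at 127.4 and 129.6. An intensity like that of Orai3 was thus also read for a gene of another organ, and the means of Itpr2 and of 1448320_at of Stim1 were lower still.

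Of the inositol trisphosphate receptors, Itpr3 was above background by its only probe set and Itpr2 by 3 of 6. Both encode calcium release channels of the endoplasmic reticulum. Itpr3 (1417297_at) was at 215 on set 1 and 199 on set 2, a mean of 207 ± 11.3. This was 3.78 times the mean bound.

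Itpr2 was brightest by 1424834_s_at, at 116.1 on set 1 and 111.7 on set 2. Probe set 1427287_s_at was at 97.8 and 74.7, and 1424833_at at 73.6 and 64.2. These 3 probe sets were above the bound on both arrays, and 2 of them carry the ending _s_at, used for probe sets whose probes may match transcripts of more than 1 gene. Probe set 1427693_at was above the bound on set 1 only, at 69.6 against 39.9. The remaining probe sets, 1444418_at at 35.4 and 38.3 and 1421678_at at 25.9 and 33.2, were under the bound on both arrays. The brightest Itpr2 probe set was 2.08 times the mean bound, and the median over its 6 probe sets, 71.6 on set 1 and 52.05 on set 2, fell under the bound on set 2. Among the 197 genes with 6 probe sets and at least 1 above background, 86.8% were likewise above it by only some of them.

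Both potassium channel genes were above background by every probe set. Kcnn4 encodes the calcium-activated potassium channel that opens as cytosolic calcium rises and is known to increase in activated T cells. Its probe set 1435945_a_at was at 1902.3 on set 1 and 1718.3 on set 2, which is 33.0 times the mean bound. Its other probe set, 1421038_a_at, was at 668.2 and 597.2. The ending _a_at is used for probe sets that match several transcripts of the same gene. The ratio of the 2 probe sets was 2.85 on set 1 and 2.88 on set 2, and both probe sets were lower on set 2.

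Kcna3 encodes the voltage-gated potassium channel that sets the resting membrane potential of T cells. Its only probe set, 1423018_at, was at 324.6 on set 1 and 262.6 on set 2, a mean of 293.6 ± 43.8 and 5.36 times the mean bound. Set 1 was the higher array, as for Kcnn4. Without a resting sample these values do not show whether either gene had changed since stimulation.

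The arrays differed by less than 1.5-fold for 14 of the 15 member probe sets above background. The exception was 1436945_x_at of Stim1, whose log2 difference, set 2 minus set 1 less the median of all probe sets above background, was 0.89. This was 1 of 15 (6.67%), against 2.81% of all 17116 probe sets above background, and no member passed 2-fold, against 0.21%. The SD of the log2 difference over the 4726 probe sets with a mean intensity between 128 and 256 was 0.24, and 0.381% of them differed at least as far as this Stim1 probe set. The other Stim1 probe set had a log2 difference of -0.49, where the SD of its intensity class was 0.33. Both differences lay outside 1 SD of their class and in opposite directions. Lying outside 1 SD was not particular to Stim1, since only 6 of the 15 member probe sets above background lay within it. In the class of 1448320_at 11.7% of probe sets differed at least as far.

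The gap between the 2 Stim1 probe sets, 1.38 on the log2 scale, was set against the same gap in all 1313 genes with 2 probe sets, both above background. This was done after the opposite movement had been seen. The median gap was 0.18, and no other of the 1313 genes had a gap this large. Dimmer probe sets vary more, and among the 502 genes with both probe sets between 64 and 256, as for Stim1, the median gap was 0.23 and again no other gene reached that of Stim1. Opposite signs alone were common. They occurred in 49.7% of those genes, and in 2 of the 4 such members, Stim1 and Orai2.

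**Figure D2:**
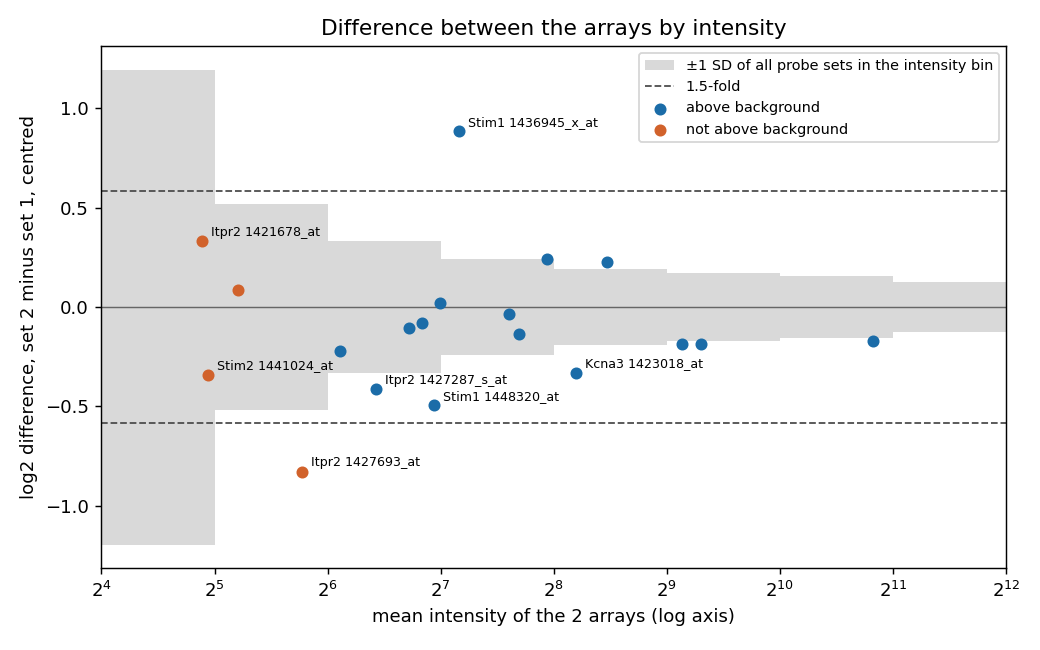
Centred log2 difference between the arrays against mean intensity (log axis) for the 19 probe sets, with members above background in blue and not above in orange. The grey band is ±1 SD of all probe sets in the same intensity class and the dashed lines mark 1.5-fold; 1436945_x_at of Stim1 is the only member above background outside them.

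Of the 15 probe sets above background 11 were lower on set 2 and 4 were higher, with a median log2 difference of -0.14. By the centring, about as many of all probe sets above background were lower as were higher. Itpr2, Kcnn4 and Orai1 each gave more than 1 of the 11, so these are not separate readings of 11 genes. Whether the members as a set differed between the arrays was not tested. Kcna3 had a log2 difference of -0.33, against an SD of 0.19 in its intensity class, in which 7.02% of probe sets differed at least as far. Both Kcnn4 probe sets were lower, by log2 differences of -0.17 and -0.19, and the bright Orai1 probe set had a difference of -0.19. These were close to 1 SD of their classes, 0.15 for 1435945_a_at and 0.17 for the other 2. Orai3 and 1434762_at of Orai2 were nearest to equal, at 0.02 and -0.03.

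Other genes of calcium and ion transport were read from 9 lists with 138 genes, of which 124 were matched to a probe set. In these lists 61 genes (49.2%) were above background, near the 47.4% of all named genes, but the share differed widely between lists. The brightest probe set gives the level of a gene in what follows.

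In the list for the production and removal of inositol trisphosphate, 7 of 14 genes were above background. Plcg1, the phospholipase C of T cell receptor signalling, was at 722.9 on set 1 and 776.9 on set 2, and Plcg2, its relative best known in B cells, at 153.7 and 175.9. Itpkb, a kinase that converts inositol trisphosphate to the tetrakisphosphate, was at 422.55 ± 15.9. The 7 also include phosphoinositide enzymes, the kinase subunit Pik3cd at 1288.45 ± 132 and the phosphatase Inpp5d at 354 ± 21.8. The list thus reaches beyond the production and removal of inositol trisphosphate itself. Plcg1 rested on 1 of 3 probe sets. Itpka, Itpkc, Plcb3 and Plcb4 were not above background, while Plcb2 exceeded it on set 1 only, at 76.8 against 21.9.

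Of the regulators of STIM and ORAI, 9 of 12 genes were above background. Saraf, which inactivates store-operated entry after the store has refilled, was at 3121.3 on set 1 and 2773.6 on set 2. Selenok, a selenoprotein of the endoplasmic reticulum needed for calcium flux in immune cells, was at 1002.05 ± 115, and Pdia3, a disulphide isomerase of that compartment, at 1319.9 ± 16.5. Esyt1, a tether between endoplasmic reticulum and plasma membrane, was at 934 ± 17.7, and the scaffold Ahnak at 2060.6 ± 88.7 by 1 of 4 probe sets. Cracr2b, Septin4 and Tmem178 were not above background, at 20.8 ± 5.23, 23.7 ± 5.23 and 10.65 ± 11.1.

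Partners of the inositol trisphosphate receptors were above background in 8 of 10 cases. Tespa1, a lymphocyte protein that links these receptors to T cell receptor signalling, was at 234.9 on set 1 and 218.1 on set 2, by 3 of 3 probe sets. Bcl2, which binds the receptors as well as opposing apoptosis, was at 651.25 ± 9.12 and Ahcyl1, which competes with inositol trisphosphate for its site, at 363.2 ± 21.4. The membrane proteins Tmbim6 and Grina were at 1556.7 ± 64.9 and 755.95 ± 34.3. Bok and Irag1 were not above background.

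Calcium pumps and exchangers were above background in 4 of 12 cases, and these covered the endoplasmic reticulum, the Golgi and the plasma membrane. The pumps that refill the endoplasmic reticulum were Atp2a2 at 647.7 on set 1 and 624.3 on set 2 and Atp2a3 at 594.2 and 580.3. Atp2b1, which pumps calcium out of the cell, was at 265.9 and 314.2, and Atp2c1, the Golgi pump, at 294.2 and 332.9. Atp2b4, another plasma membrane pump found in lymphocytes, lay at the bound, at 52.9 and 56.1, and so exceeded it on set 2 only. Atp2a1 exceeded the bound on set 2 only, at 60.9 against 43.5, and Atp2b3 on set 1 only, at 55.8 against 52.9, while Atp2b2 was at 20.9 and 23.2 and Atp2c2 at 4.8 and 15.2. The exchanger genes of this list, Slc8a1, Slc8a2 and Slc8a3, named after their values were seen, ranged from 3.35 to 25.05 in mean intensity.

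The list of mitochondrial calcium uptake had 9 of 10 genes above background. It is not of uptake alone, since the 9 include the exchanger gene Slc8b1. Named after its value was seen, Slc8b1 was at 71.8 on set 1 and 119.1 on set 2. The outer membrane channels Vdac1, Vdac2 and Vdac3 were at 1041.45 ± 36.7, 1317.4 ± 143 and 808.9 ± 2.40. Smdt1, a small subunit of the calcium uniporter, was at 651.5 on set 1 and 658.6 on set 2, and its regulator Mcur1 at 539.7 and 580.1. Mcu, the pore of the uniporter, was named after its value was seen, at 86.9 and 116 by 1 of 2 probe sets. Micu3 was not above background at 41.35 ± 5.59.

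The list of calcineurin and NFAT genes, which also holds Nfat5 and Cabin1, had 9 of 10 genes above background. The calcineurin subunits Ppp3cb and Ppp3r1 were at 664.45 ± 4.60 and 443.75 ± 15.2, and Nfatc1 and Nfatc3 at 622.25 ± 29.5 and 560.95 ± 21.1. Nfat5 was at 417.25 ± 24.5 by 3 of 6 probe sets. Rcan1, a calcineurin inhibitor that NFAT induces, exceeded the bound on set 1 only, at 64.2 against 52.8.

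**Figure D3:**
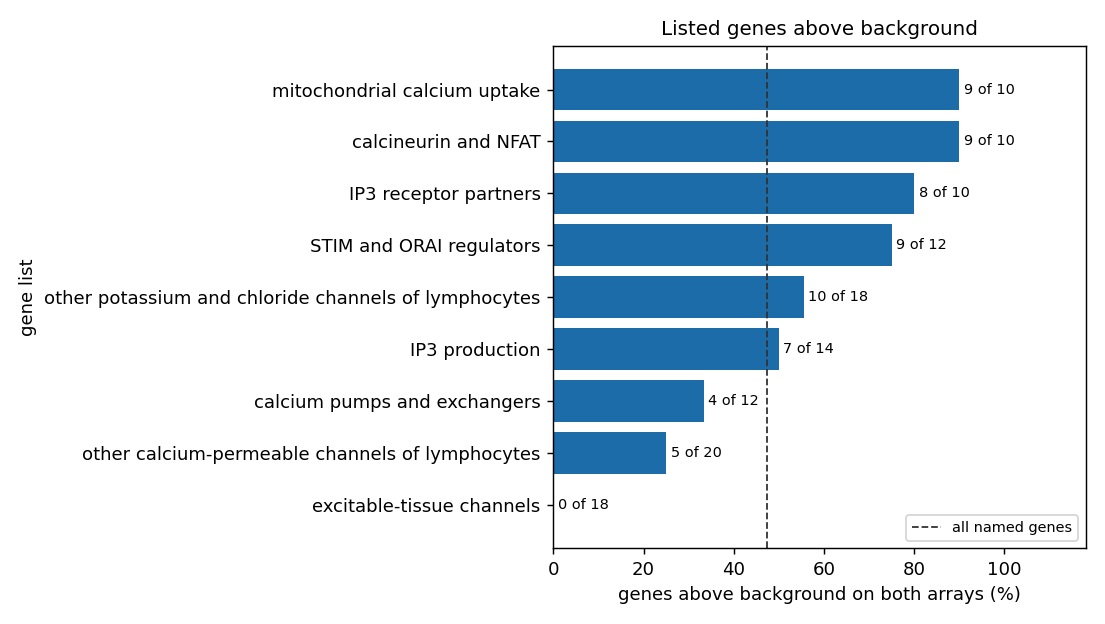
Share of matched genes above background on both arrays in each of the 9 gene lists (bars, %), with the count beside each bar and a dashed line at the 47.4% of all named genes. The lists of mitochondrial calcium uptake and of calcineurin and NFAT each have 9 of 10 genes above background. The list of channels of excitable tissue has 0 of 18.

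The list of other calcium-permeable channels described in lymphocytes was mostly not above background, with 5 of 20 genes. It also holds Trpm4, which calcium opens but which passes sodium and potassium, and without it the count was 4 of 19. Those above were Trpm7, a channel joined to a kinase, at 437.6 on set 1 and 597.2 on set 2, Trpv2 at 455.3 and 480.4, and the ATP-gated P2rx4 at 175.8 and 159.4. Mechanosensitive Piezo1 was at 134.45 ± 4.45 and Trpm4 at 89.05 ± 4.17. The voltage-gated calcium channel genes Cacna1c, Cacna1d, Cacna1f and Cacna1s and the ATP-gated P2rx1 were not above background. Nor were the ryanodine receptors Ryr1, Ryr2 and Ryr3, the other release channels of the endoplasmic reticulum, named after their values were seen, at means of 33.05, 15.6 and 24.9.

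Among other potassium and chloride channels 10 of 18 genes were above background. Those named by the rule for listed genes were Clic1 at 2637.75 ± 97.2, the vesicle chloride exchanger Clcn3 at 1214.95 ± 56.6, Lrrc8c, a subunit of the volume-regulated anion channel, at 645.35 ± 39.1, Kcnab2 at 401.25 ± 3.89 and Ttyh3 at 219 ± 11.7. Kcnab2, the beta subunit that binds Kcna3 and related channels, was at 404 on set 1 and 398.5 on set 2 by 2 of 2 probe sets. The potassium channel genes Kcna1, Kcnc1, Kcnk5, Kcnk6 and Kcnma1 were not above background, although Kcnk6 exceeded the bound on set 2, at 83.4 against 52.7 on set 1.

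The closest relatives of both potassium channel members were mostly dim. Kcnn1, Kcnn2 and Kcnn3, the small-conductance relatives of Kcnn4, were named after their values were seen and had means of 17.5, 15.9 and 2.50, none above the bound on either array. Kcna1, a relative of Kcna3, was at 26.3 on both arrays, and Kcna2, also named after its value was seen, at 66.4 and 60.1 by 1 of 4 probe sets. In the list of channels of nerve, heart and muscle 0 of 18 genes were above background, among them the calcium channel genes Cacna1a, Cacna1b, Cacna1e, Cacna1g and Cacna1h.

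**Figure D4:**
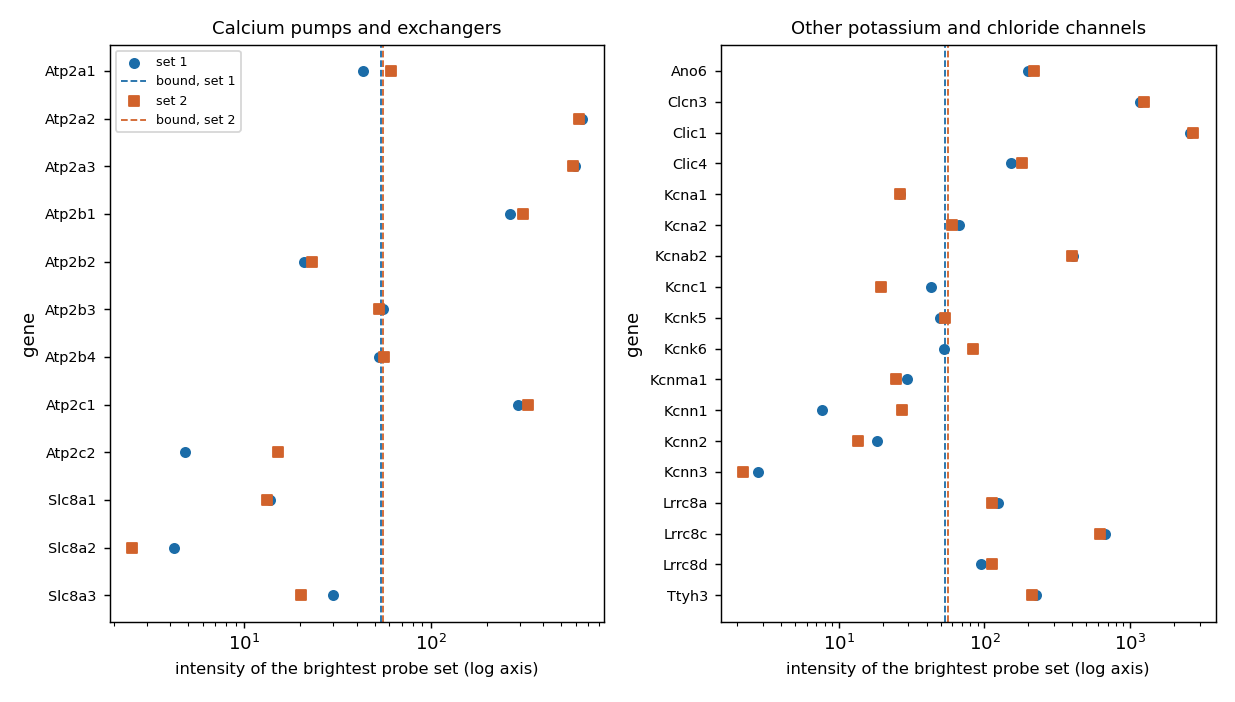
Intensity of the brightest probe set of each gene (log axis) on set 1 (circles) and set 2 (squares) for calcium pumps and exchangers (left) and other potassium and chloride channels (right), with dashed lines at the bounds of 53.9 and 55.7. Atp2a2, Atp2a3, Atp2b1 and Atp2c1 lie above both bounds, and the 3 Kcnn genes shown lie under them.

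Markers were read to check the labelled cell type, and those named here were picked after their values were seen. All 11 measured T cell markers were above background, with Cd3e at 1397.65 ± 46.7 and Cd4 at 1118.75 ± 95.2, and their summed intensity was 21722 on set 1 and 21084 on set 2. Markers of other cells, several of which also use these channels, were above background in 5 of 8 cases for B cells, 2 of 4 for CD8 T cells, 1 of 14 for macrophages and dendritic cells, 1 of 5 for NK cells, 2 of 11 for mast cells and granulocytes and 2 of 9 for erythroid cells and platelets. The summed intensity of the B cell markers was 1084.5 and 1082.8 on set 1 and set 2, with Ms4a1 at 377.4 ± 17.4. Cd22, Cd79b, Cd79a and Blk were also above background, at means of 221, 165.35, 108.4 and 75.4. Pax5, the B lineage factor, lay at the bound, at 54 on set 1 and 53.7 on set 2. It thus exceeded the bound on set 1 only, and Ebf1 and Cr2 were under it on both arrays. The macrophage and dendritic cell sum was 384.2 and 576.3, mostly from genes not above background. In it Csf1r, the 1 gene above background, was at 57.3 and 146.7, and Adgre1, above the bound on set 2 only, at 39.7 and 76.6. The CD8 T cell sum was 305.5 and 356.2, of which Cd8b1 made up 190.5 and 235.3. Cd8a, above background by 1 of 5 probe sets, was at 65.6 and 67.3, and Eomes and Crtam were not above background. The NK cell sum was 1619.5 and 1738.2, of which Klrd1 made up 1576.8 and 1683. The mast cell and granulocyte sum was 692.5 and 813.1, of which Kit made up 422.8 and 565, and the erythroid and platelet sum 290.3 and 344.1. No marker could be at 0 on both arrays, since the lowest value of any probe set on set 1 was 0.1. Values of 0 thus could not show that a cell type was absent. The part of other cells in the channel values was not tested, and fewer cells of a type cannot be told apart from less RNA per cell.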

How the data were processed

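The authors deposited 1 intensity per probe set and array, judged to be on a linear scale from its range. How background, probe summary and scaling were handled is not stated in the labels, and no genome build or coordinates were used. Control probe sets (64) were left out. Probe sets were named from GEO's platform annotation, and members were taken where 1 symbol alone was given. The members, the lists and the bound rule were chosen with earlier results of these data known. The named genes were all members and, from each list, up to 5 genes above background with the highest ratio to the mean bound, a choice that ranks probe signals and not transcript levels, and the first 5 not above it in alphabetical order. Off-tissue genes, cell type markers and the other genes so described were named after their values were seen. The bound used 64 probe sets of off-tissue genes. Intensities under 1 were set to 1 before log2. The median log2 difference of 0.03 was subtracted. No p-value is given, because 1 group of 2 arrays allows no comparison, and having 2 arrays limits the precision. The calculation was tested on simulated data. Python 3.11.15, numpy 2.4.6, pandas 2.3.3 and matplotlib 3.10.9 were used.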

Additional observations from a re-analysis of the deposited data

How the results depend on the processing

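All 9 measured member genes stayed above background with the bound at the 90th or 99th percentile or at the overall median intensity, after quantile normalization and on either array alone. At the 99th percentile (98.3 on set 1 and 109 on set 2) the member probe sets above background fell from 15 to 11. Those lost were 1424989_at of Orai1, at 102.5 on set 2, 1448320_at of Stim1, at 103 on set 2, and 1427287_s_at and 1424833_at of Itpr2. Stim1 then rested on 1436945_x_at alone, little over the bound on set 1 at 99.7. Itpr2 rested on 1424834_s_at alone, little over the bound on set 2 at 111.7. Listed genes above background fell from 61 to 52 there, including mitochondrial uptake from 9 to 6 and the inositol trisphosphate list from 7 to 5. With the bound from the second off-tissue list (105 on set 1 and 116 on set 2), which Mbp and Tg raise, 7 were above it, without Stim1 and Itpr2, and the member probe sets above background fell from 15 to 9. Without replicate 1 or replicate 2 the count of member genes was 9 and that of member probe sets 15 and 16. With the median over the probe sets of a gene the count was 8, without Itpr2. The count of member probe sets past the fold limit was 0 at 2-fold and 2 with no filter on dim probe sets, the added probe set being 1427693_at of Itpr2. When every probe set had to exceed the bound, the counts fell to 4 for the inositol trisphosphate list, 2 for pumps and exchangers, and 4 for calcineurin and NFAT. At the median of all probe sets, counts rose to 7 for pumps and exchangers, 8 for the list of other calcium-permeable channels and 3 for channels of excitable tissue. The last list counted 1 at the 90th percentile, and 1 and 0 when either array was left out. Quantile normalization, no centring and a floor of 16 before log2 each moved the log2 difference of every member probe set by less than 1 SD of its intensity class. Signal over background limits Stim1, Orai3 and Itpr2 most, and Stim1 is also limited by the disagreement of its probe sets between the arrays. No paired analysis was possible because the arrays form a single group.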
